A study of Danio rerio with 5 samples.

Results

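The comparison set 3 pools of whole zebrafish larvae irradiated with 15 Gy of protons against 1 unirradiated pool. Both groups were of the AB strain and were sampled at 7 days after fertilization. The members are the 4 arrays that the labels assign to 15 Gy or to no irradiation, of 5 arrays in the series. The embryos came from wild-type pairs and several clutches, were pooled, and were irradiated after 24 h of development with a beam of 8 MeV/u at 7.5 Gy/min. Each array held RNA from 20 animals, taken from a group of 60 per condition. The 15 Gy pools are labelled as biological replicates, with no word on whether each was irradiated on its own, so p-values measured only the spread between these pools. The remaining array, at 12 Gy, entered the fit of the linear model and was not compared. Because each pool was whole larvae, fewer cells of a type and less RNA per cell cannot be told apart in any result below.

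Ionizing radiation breaks DNA, and cells answer through the transcription factor p53, which switches on genes for arrest, repair and cell death. Damaged larval tissue also runs immediate-early, heat-shock, cytokine and matrix-remodelling programmes, which in zebrafish accompany regeneration of the fin, heart and retina. The central nervous system and the retina are still adding neurons in the first week of life, and their mature cells carry distinctive phototransduction and synaptic transcripts.

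No probe set passed limma's moderated test at an adjusted p of 0.05 among 15502 (0.0% called), and the smallest adjusted p was 0.167. At an unadjusted p under 0.05, 2195 probe sets lay higher (14.2%) and 1867 lower (12.0%). The control had a single array, so the test's 2 residual degrees of freedom came entirely from the 15 Gy arrays. A call by size is therefore used below: a gene was called higher or lower when each of the 3 arrays at 15 Gy differed from the control array by at least 2-fold. Among probe sets, 642 were called higher (4.14%) and 435 lower (2.81%). Among 8793 named genes, 448 were called higher (5.09%) and 219 lower (2.49%). At 4-fold the counts were 80 higher (0.91%) and 2 lower (0.0227%), and at 8-fold they were 18 higher (0.205%) and 0 lower (0.0%). Over all named genes, 3605 lay above the control in all 3 arrays (41.0%) and 3211 below (36.5%), and the median difference was 0.01 on the log2 scale. Where a list is described below, its counts are read against those shares.

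**Figure D1:**
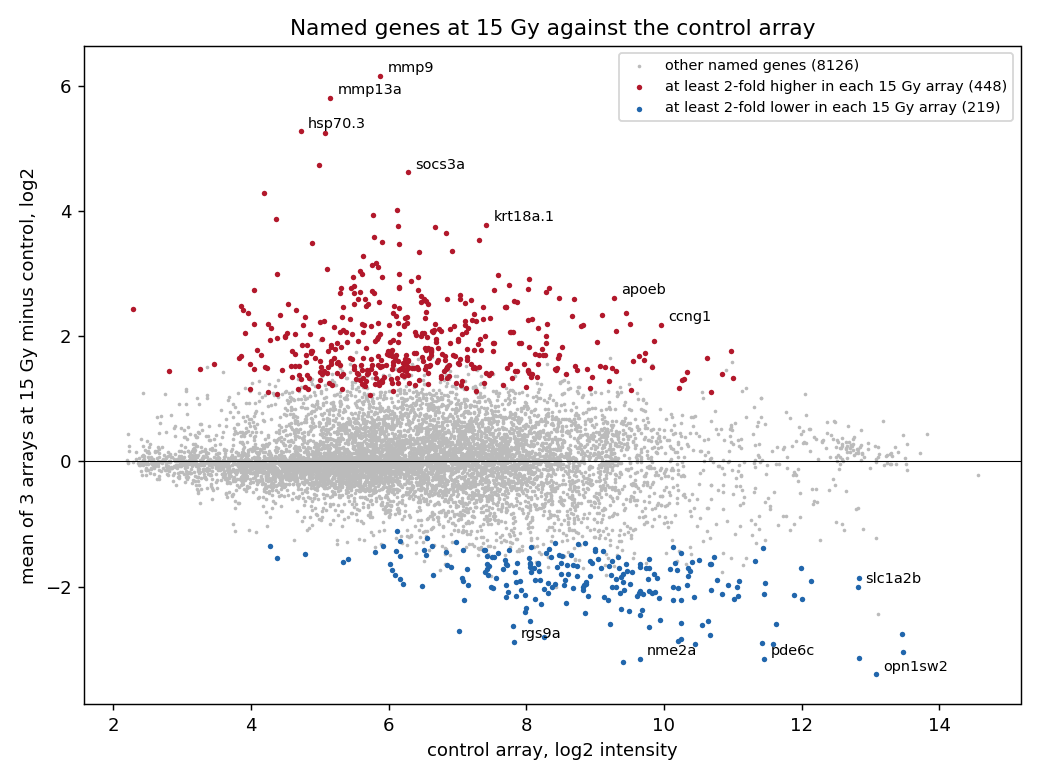
Each point is a named gene, with its log2 intensity in the control array on the x axis and the mean of the 3 arrays at 15 Gy minus the control on the y axis (log2). Red points are the 448 genes at least 2-fold higher in each 15 Gy array, and blue points the 219 at least 2-fold lower. The blue points sit further right than the red ones, with median control levels of 8.84 and 6.24. The call uses the control value itself, so part of this shift is built into it.

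The genes called lower were bright in the control, with a median log2 intensity of 8.84, against 6.24 for genes called higher and 6.41 for all named genes. The call uses the control value itself, and a gene dim in the control has little room to be called lower. Part of this contrast is therefore built into the call. Of the genes called higher, 42 lay under the control array's lower quartile, and of those called lower, 2 did. The 15 Gy arrays were not equally far from the control. Among genes called higher, replicate 1 was the farthest array for 407, replicate 3 for 41 and replicate 2 for 0. Among genes called lower, replicate 1 was the farthest for 219 of 219, and replicate 2 was the nearest for 211. The median differences of called genes in replicates 1, 2 and 3 were 2.13, 1.38 and 1.76 on the log2 scale for genes called higher and -2.69, -1.22 and -1.63 for genes called lower. Replicate 2 thus set most calls: without it, 740 named genes were called higher and 428 lower. Replicate 1 weighed most on the sizes of the lower genes: leaving it out moved the mean fold by over 1.5 times for 41 of 219, against 12 without replicate 2. Leaving out any 1 of the 3 arrays did so for 0 of the 448 genes called higher. The spread followed the same pattern, with a median SD between the 15 Gy pools of 0.15 over all genes, 0.37 over genes called higher and 0.76 over genes called lower (n = 3). A measure of RNA integrity moved with this order. For muscle actin, the intensity of the 5′ control probe set over that of the 3′ one was 0.0171 in the control and 0.129, 0.0350 and 0.108 in replicates 1, 2 and 3, and for GAPDH it was 0.174, 0.242, 0.189 and 0.228 in the same order. For both genes the ratio was lowest in the control, where the signal was most weighted to the 3′ end, and highest in replicate 1. The part of RNA integrity in the differences below was not tested.

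**Figure D2:**
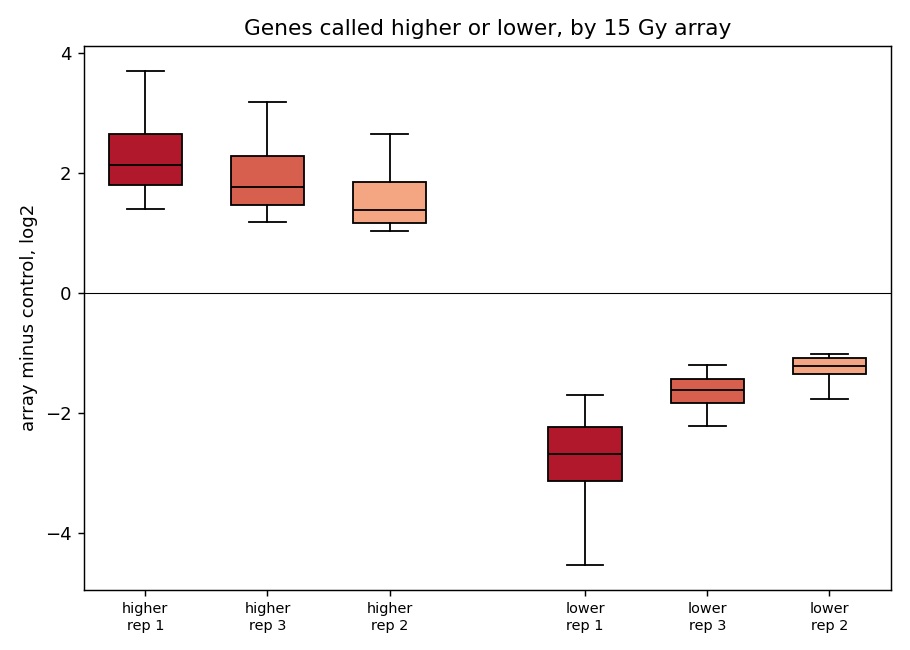
Box plots of the difference of each 15 Gy array from the control array (log2) over the 448 genes called higher and the 219 called lower. Boxes span the quartiles with the median as a line, and whiskers the 5th to 95th percentiles. Replicate 1 lies farthest from the control on both sides and replicate 2 nearest.

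The genes farthest above the control coded for secreted matrix enzymes, cytokine inhibitors and stress proteins. The matrix metallopeptidase gene mmp9 had a log2 intensity of 5.88 in the control and 12.47, 11.70 and 11.96 in replicates 1, 2 and 3, a difference of 6.17 ± 0.36 (SE) or 71.8-fold. A second collagenase gene, mmp13a, stood at 5.15 in the control and 11.91, 10.27 and 10.71 in replicates 1, 2 and 3. The inhibitor gene timp2b, whose product restrains these enzymes, stood at 4.98 in the control and 10.21, 9.22 and 9.74 in replicates 1, 2 and 3. In all 3 genes every 15 Gy array lay more than 4 log2 units above the control, and replicate 1 was the highest, as in most genes called higher.

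Among the other genes farthest above, irg1l, an immune-responsive gene of the itaconate-producing family, stood at 5.07 in the control and 10.63, 9.76 and 10.57 in replicates 1, 2 and 3. The inducible heat-shock gene hsp70.3 stood at 4.72 in the control and 10.91, 9.17 and 9.93 in replicates 1, 2 and 3, 38.9-fold on the mean, or 24.6-fold after adding 16 to each intensity. The cytokine-signalling inhibitor socs3a stood at 6.28 in the control and 11.23, 10.52 and 10.96 in replicates 1, 2 and 3, and its copy socs3b at 6.13 in the control and 10.13, 9.53 and 10.03 in replicates 1, 2 and 3. Replicates 1 and 3 lay close together for irg1l and for socs3b, whereas hsp70.3 was spread over more than 1 unit between the 15 Gy pools. The prostaglandin synthase gene ptgs2a stood at 4.19 in the control and 9.20, 7.78 and 8.45 in replicates 1, 2 and 3, the transcription factor gene cebpb at 5.77 in the control and 10.24, 9.32 and 9.57 in replicates 1, 2 and 3, and the fibronectin gene fn1b at 6.67 in the control and 10.38, 10.15 and 10.76 in replicates 1, 2 and 3. In fn1b alone of these, replicate 3 was the highest array. The remaining 5 of the 15 were anxa2a (difference 4.03 ± 0.55), moxd1 (3.87 ± 0.52), krt18a.1 (3.78 ± 0.40), clu (3.65 ± 0.34) and hbegfa (3.47 ± 0.40). The limma adjusted p of the 30 genes farthest from the control on either side ran from 0.167 to 0.341.

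**Figure D3:**
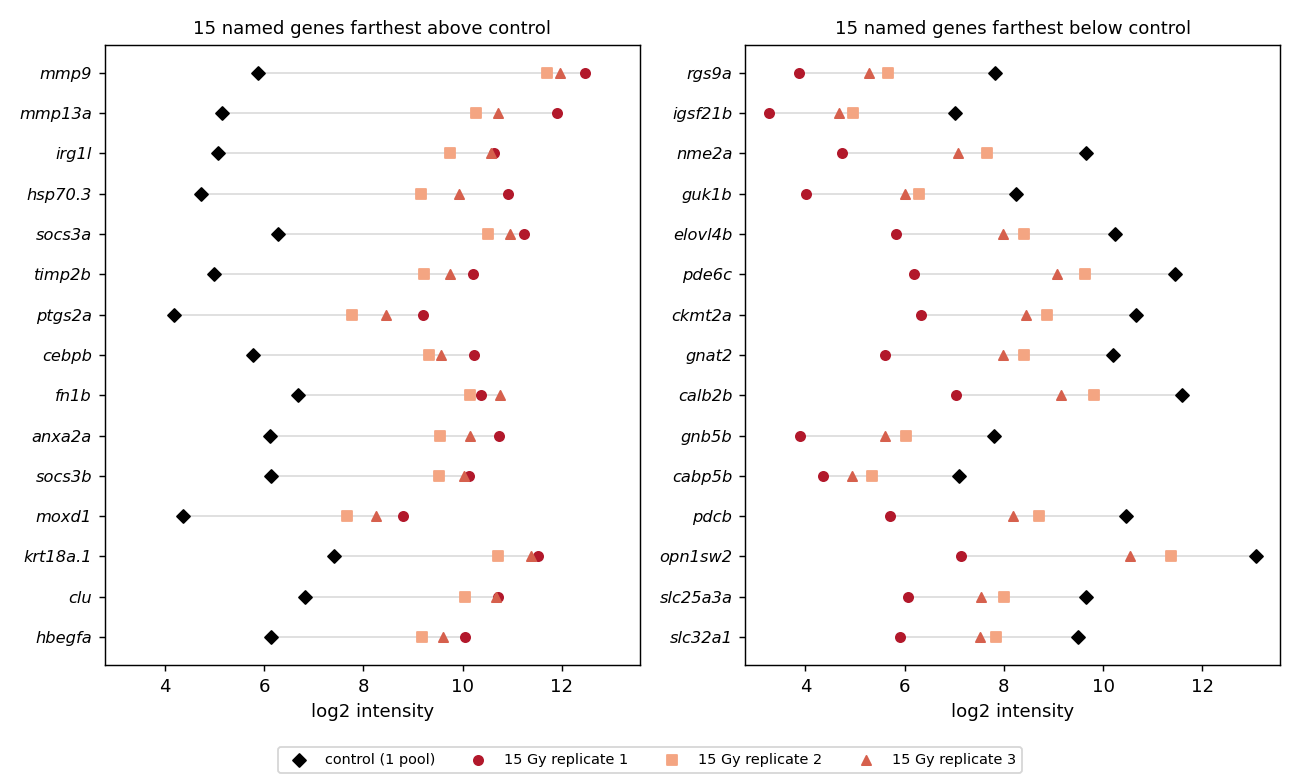
Log2 intensity (x axis) of the 15 named genes farthest above the control (left) and the 15 farthest below (right), ranked by the 15 Gy array nearest to the control. Black diamonds are the single control pool, and the other symbols are the 15 Gy pools. Replicate 1 (circles) lies far below the other pools for most genes on the right, as for opn1sw2, at 7.13 against 11.36 and 10.55.

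Part of the list of p53 targets stood above the control. Of 20 listed targets, 7 of 20 were called higher and 0 lower, with a median difference of 0.70 against 0.01 over all genes. The pro-apoptotic regulator gene phlda3 stood at 5.56 in the control and 8.65, 7.78 and 8.06 in replicates 1, 2 and 3. The cyclin gene ccng1 was among the brightest of the set, at 9.96 in the control and 12.26, 11.95 and 12.22 in replicates 1, 2 and 3. The gene for the p53 inhibitor, mdm2, stood at 6.26 in the control and 9.01, 8.22 and 8.50 in replicates 1, 2 and 3, and the stress sensor gene gadd45aa at 3.86 in the control and 6.79, 5.81 and 6.42 in replicates 1, 2 and 3. That all 3 pools lay above the control in each of these 4 genes follows from the call itself. The spread between pools was smallest for ccng1, with a difference of 2.19 ± 0.17. The other targets called higher were plk3, btg2 and sesn3, with differences of 1.19, 1.22 and 1.34.

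Other members of the list were not called. The gene baxa, a pore-forming member of the Bcl2 family, differed by 1.03 ± 0.19, and bbc3, a p53-induced killer gene, differed by 0.13 ± 0.16. The nucleotide-excision repair genes ddb2 and xpc, both p53 targets in mammals, differed by -0.24 and -0.18. In the list of DNA repair and checkpoint genes 1 of 46 was called higher (2.17%, under the 5.09% over all named genes) and 0 lower. The median was -0.00, and its sign flipped under some scalings. The called gene was parp3, a polymerase that marks DNA breaks, at 5.30 in the control and 7.52, 6.79 and 7.11 in replicates 1, 2 and 3. The end-joining gene xrcc5 differed by 0.80 ± 0.27, and the p53 antagonist mdm4 by -0.62 ± 0.19. None of 73 cell-cycle and replication genes was called either way. Their median was -0.03, and the member farthest from the control, the replication licensing gene mcm7, differed by -0.63 ± 0.37. In the apoptosis list 2 of 47 genes were called higher (4.26%), also under the share over all named genes. They were the survival genes mcl1b, at 6.22 in the control and 8.97, 7.80 and 8.37 in replicates 1, 2 and 3, and mcl1a, which differed by 1.45 ± 0.40. Without replicate 2, 5 apoptosis genes were called higher, and under cyclic loess 1.

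Immediate-early genes, which are transcribed within minutes of a stimulus, lay higher in these larvae, days after the irradiation. Of 29, 11 of 29 were called higher and 0 lower, with a median of 0.81, and 23 lay above the control in all 3 arrays. The AP-1 subunit gene junba stood at 6.92 in the control and 10.74, 9.79 and 10.33 in replicates 1, 2 and 3, and fosab at 7.36 in the control and 9.88, 9.72 and 9.89 in replicates 1, 2 and 3. The stress factor gene atf3 stood at 5.46 in the control and 8.44, 8.08 and 8.16 in replicates 1, 2 and 3. The 3 pools agreed within 0.2 units for fosab, a narrower spread than for junba, and 2 of the 4 fosab probe sets were called higher and 0 lower. Of all 6 jun and fos genes measured, a family chosen after its values were seen, 5 were called higher and the sixth, fosl1b, differed by 0.48. Median centring or quantile normalization brought 1 immediate-early gene under the lower limit, as did leaving out replicate 2.

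Genes of the JAK, STAT and SOCS pathway, which carries cytokine signals to the nucleus, included 5 of 15 called higher, with a median of 0.62. Beside the pair of socs3 genes, the kinase gene pim2 stood at 6.00 in the control and 8.34, 7.46 and 7.47 in replicates 1, 2 and 3 and the receptor-associated kinase gene jak1 at 8.46 in the control and 10.28, 9.90 and 10.17 in replicates 1, 2 and 3. The cytokine and receptor list itself had 1 of 13 called higher (7.69%, near the 5.09% over all named genes). That gene was tgfb1a, a growth factor gene, at 4.60 in the control and 6.34, 5.68 and 5.80 in replicates 1, 2 and 3, and leaving out replicate 2 gave 3 while adding 16 to each intensity gave 0. In the NF-kB list, 1 of 12 was called (8.33%, also near that share), the inhibitor gene nfkbiaa. It stood at 7.11 in the control and 9.84, 9.52 and 9.57 in replicates 1, 2 and 3. Its copy nfkbiab differed by 1.12 ± 0.21. Without replicate 2, 2 NF-kB genes were called higher. Among genes tied to regeneration in zebrafish, 12 of 30 were called higher and 0 lower, with a median of 1.06. They shared fn1b, socs3b and junba with the lists above, and added hbegfa, an epidermal growth factor ligand gene, at 6.14 in the control and 10.05, 9.19 and 9.61 in replicates 1, 2 and 3. Without replicate 2, 1 regeneration gene was called lower.

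Protein-folding genes differed in a graded way, with large differences in a few genes of the heat-shock list and small ones in most of the others. In the heat-shock list 5 of 35 genes were called higher and 1 of 35 lower, and 29 lay above the control in all 3 arrays (10 were called higher without replicate 2). The collagen chaperone gene serpinh1b stood at 5.50 in the control and 8.70, 7.69 and 8.20 in replicates 1, 2 and 3. The co-chaperone gene dnajb1b stood at 5.86 in the control and 9.41, 7.76 and 8.05 in replicates 1, 2 and 3, and the small heat-shock gene hspb1 at 6.57 in the control and 9.82, 8.42 and 9.04 in replicates 1, 2 and 3. Replicate 1 was the highest array in each of the 3, as in most genes called higher, and for dnajb1b it lay more than 1 unit above the others. In the endoplasmic reticulum list 27 of 28 genes lay above the control in all 3 arrays, yet 3 of 28 were called, with a median of 0.62. The main lumenal chaperone gene hspa5 stood at 8.17 in the control and 10.28, 9.18 and 9.74 in replicates 1, 2 and 3, and hsp90b1 at 7.87 in the control and 9.76, 8.93 and 9.27 in replicates 1, 2 and 3. The count of endoplasmic reticulum genes depended on the array and the scaling, at 8 without replicate 2 and 1 under cyclic loess or median centring.

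Of 19 genes tied to the amino acid stress factor ATF4, 3 of 19 were called higher (1 after adding 16 to the intensities). They were eif4ebp3l, a translation repressor gene, at 7.53 in the control and 9.97, 8.78 and 9.50 in replicates 1, 2 and 3, the vascular growth factor gene vegfaa, which differed by 1.39 ± 0.39, and ddit4, an inhibitor of growth signalling, which was 2.63-fold higher on the mean. In the list of glutathione, thioredoxin and NRF2 genes 6 of 28 were called higher, 10 without replicate 2 and 3 after adding 16. The thioredoxin gene txnb stood at 6.45 in the control and 10.11, 9.38 and 9.93 in replicates 1, 2 and 3. The peroxidase gene gpx1b differed by 2.18 ± 0.29, and sqstm1, an autophagy receptor gene that also stabilizes the NRF2 pathway, by 1.79 ± 0.44.

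Translation and protein turnover genes showed small differences that lay above the control in most members. Of 69 translation factors and tRNA synthetases, 61 lay above the control in all 3 arrays, with a median of 0.54, while 0 of 69 were called higher (6 without replicate 2) and 1 of 69 lower (2 without replicate 2). The arginyl synthetase gene rars1 differed by 1.33 ± 0.37, and eif6, a ribosome assembly factor gene, by 1.25 ± 0.42. Of 73 ribosome biogenesis genes 60 lay above the control in all 3 arrays and 0 were called (3 higher without replicate 2), with a median of 0.43. Proteasome and ubiquitin genes had 55 of 62 above the control in all 3 arrays and a median of 0.45. The called member, psme1, an activator subunit gene of the immune-induced proteasome, stood at 4.09 in the control and 6.25, 5.50 and 5.88 in replicates 1, 2 and 3, and that call was lost after adding 16, while 2 were called without replicate 2. The 71 cytosolic ribosomal protein genes had a median of 0.22, which was -0.04 under cyclic loess.

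Epidermal and junction genes made up the list with the most genes called higher. Of 40 keratin and epidermal differentiation genes, 16 of 40 were called higher, 0 were lower, and 35 lay above the control in all 3 arrays, with a median of 1.23. Without replicate 2, 28 were called higher. The simple-epithelium keratin genes krt18a.1 and krt8 stood at 7.42 in the control and 11.51, 10.71 and 11.38 in replicates 1, 2 and 3, and at 8.29 in the control and 11.46, 10.48 and 11.06 in replicates 1, 2 and 3, respectively. The adhesion gene cdh1 stood at 8.08 in the control and 10.41, 10.23 and 10.43 in replicates 1, 2 and 3, and the tight-junction gene cldni at 8.67 in the control and 11.12, 10.64 and 11.24 in replicates 1, 2 and 3. The pools agreed most closely for cdh1, whose difference was 2.28 ± 0.12. The keratin gene krt4, the defining marker of larval skin, was bright in every array and differed by 1.13 ± 0.30, short of the call in replicate 2.

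Claudins, the strand proteins of tight junctions, were examined as a whole family after their values were seen. Of 24 claudin genes on the array, 9 were called higher and 0 lower, and 16 lay above the control in all 3 arrays. The differences were 2.95 for cldn23.1, 2.59 for cldnb, 2.08 for cldn7b and 2.01 for cldn1. In contrast cldnk, a claudin gene expressed in myelinating glia, differed by -0.52 and cldng by -0.12. The median over the family was 0.87, and 0.59 when all probe sets of a gene were averaged.

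Annexins and S100 proteins, calcium-binding proteins of membranes and the cell cortex, had 9 of 24 called higher, 0 lower and a median of 1.04. The annexin gene anxa2a stood at 6.12 in the control and 10.74, 9.55 and 10.14 in replicates 1, 2 and 3. Its binding partner s100a10b stood at 7.31 in the control and 11.41, 10.25 and 10.89 in replicates 1, 2 and 3. Both members of the complex were highest in replicate 1 and lowest of the pools in replicate 2, as were most genes called higher. The actin cytoskeleton list held 15 of 46 called higher and 1 of 46 lower, with a median of 0.77. The actin-bundling gene tagln2 stood at 8.03 in the control and 11.20, 10.44 and 10.71 in replicates 1, 2 and 3, the tropomyosin gene tpm4a at 7.71 in the control and 10.38, 9.83 and 10.32 in replicates 1, 2 and 3, and the cross-linker gene flna at 9.10 in the control and 11.76, 11.18 and 11.39 in replicates 1, 2 and 3. The member called lower, scinla, an actin-severing gene, stood at 8.96 in the control and 6.86, 7.57 and 7.57 in replicates 1, 2 and 3, and cyclic loess or median centring gave 2 lower.

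Extracellular proteases and their inhibitors had the highest share of called members among the lists above the control, 8 of 15 with 0 lower, and a median of 1.32. Beside mmp9, mmp13a and timp2b, the gelatinase gene mmp2 stood at 5.91 in the control and 10.02, 8.74 and 9.48 in replicates 1, 2 and 3. Its membrane-bound activators mmp14a and mmp14b differed by 1.32 ± 0.16 and 1.71 ± 0.22. All 7 matrix metallopeptidase genes on the array were counted after their values were seen. Of them 5 were called higher, and the exceptions mmp11b and mmp17b differed by -0.33 and -0.08. Matrix, collagen and integrin genes had 11 of 33 called higher and 1 of 33 lower, with a median of 0.66. The second fibronectin gene fn1a stood at 6.15 in the control and 9.36, 8.42 and 9.01 in replicates 1, 2 and 3, the matricellular gene ccn1 at 6.43 in the control and 9.80, 9.07 and 9.25 in replicates 1, 2 and 3, and the cross-linking enzyme gene tgm2b at 6.47 in the control and 9.45, 8.75 and 9.14 in replicates 1, 2 and 3. For fn1a and for ccn1, 1 of 3 probe sets was called higher and 0 lower. The member called lower, spock3, a proteoglycan gene, stood at 9.78 in the control and 7.59, 8.77 and 8.32 in replicates 1, 2 and 3, and was not called after adding 16 or averaging probe sets. None of 20 cartilage and bone genes was called (1 higher without replicate 2), and the cartilage collagen gene col2a1a differed by -0.02 ± 0.26. For the list member hapln1a, 2 of 6 probe sets were called higher and 0 lower, but not the brightest, which stood for the gene.

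Macrophage and neutrophil markers included 9 of 23 called higher, with 22 above the control in all 3 arrays and a median of 0.90. The list was led by mmp9, mmp13a and irg1l. The proteoglycan gene srgn, found in granules of blood cells, stood at 5.75 in the control and 9.53, 8.36 and 8.80 in replicates 1, 2 and 3. Of 3 further markers, singled out after their values were seen, 1 was called. The neutrophil peroxidase gene mpx differed by 0.15 ± 0.08, the macrophage receptor gene csf1ra by 0.00 ± 0.07, and the leukocyte actin-bundling gene lcp1, which was called, by 1.21 ± 0.10. Of 8 lymphoid markers none was called, and 6 lay below the control in all 3 arrays.

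Genes of plasma proteins made by the liver were higher in part. Complement genes had 5 of 17 called higher and 0 lower, led by c4b at 4.89 in the control and 8.89, 7.92 and 8.33 in replicates 1, 2 and 3 and by the pore component gene c6.2, which differed by 2.71 ± 0.28. All 3 fibrinogen chain genes were called: fga stood at 6.15 in the control and 9.27, 8.44 and 9.13 in replicates 1, 2 and 3, fgb at 5.48 in the control and 8.84, 7.91 and 8.53 in replicates 1, 2 and 3 and fgg at 5.66 in the control and 8.73, 7.76 and 8.30 in replicates 1, 2 and 3. The 3 chains had nearly the same differences, 2.79, 2.95 and 2.60, and the same order of pools, an order that most genes called higher shared. Coagulation and fibrinolysis genes had 5 of 17 called higher, with a median of 0.23. That median lay above 1 without the dimmest 30% of probe sets. The filter used the mean over all 5 arrays, irradiated ones included. Genes dim in the control could thus stay in through high values after irradiation, so part of this rise may be built into the filter. Acute-phase and other plasma protein genes had 8 of 26 called higher and a median of 0.78. The apolipoprotein E genes apoeb and apoea stood at 9.28 in the control and 12.13, 11.50 and 12.05 in replicates 1, 2 and 3, and at 7.20 in the control and 10.41, 9.24 and 9.66 in replicates 1, 2 and 3, respectively. Of 12 apolipoprotein genes, a family chosen after its values were seen, 7 were called higher and 11 lay above the control in all 3 arrays, and apoc4 differed by -0.29. The hepatocyte marker fabp10a, by contrast, lay below the control in all 3 arrays, at 7.94 in the control and 5.98, 7.72 and 7.84 in replicates 1, 2 and 3.

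Some genes of the liver metabolism, glucocorticoid, interferon and lysosome lists were also higher. In the liver metabolism list 6 of 47 were called higher and 0 lower. The growth factor binding gene igfbp1a, induced by fasting and stress in fish, stood at 8.04 in the control and 11.27, 10.65 and 10.95 in replicates 1, 2 and 3, the arginase gene arg2 at 7.15 in the control and 9.95, 8.82 and 9.09 in replicates 1, 2 and 3, and the xenobiotic enzyme gene cyp1a at 7.14 in the control and 8.95, 8.73 and 8.63 in replicates 1, 2 and 3. Of 38 glucocorticoid and fasting genes, 7 of 38 were called higher (11 without replicate 2), among them the kinase gene sgk1, at 8.31 in the control and 10.69, 10.31 and 10.52 in replicates 1, 2 and 3, and cebpd, which differed by 2.36 ± 0.44. For cebpd, 1 of 2 probe sets was called higher and 0 lower. Interferon response genes had 4 of 17 called higher (2 after adding 16), led by isg15, a ubiquitin-like antiviral gene, at 5.29 in the control and 8.48, 7.64 and 7.81 in replicates 1, 2 and 3, and by irf1b, which differed by 2.07 ± 0.35. In the lysosome list 7 of 53 were called higher (11 without replicate 2), including the bone and macrophage protease gene ctsk, at 5.76 in the control and 8.98, 7.83 and 8.64 in replicates 1, 2 and 3, and 1 of 53 was called lower (3 under cyclic loess or without replicate 2, 2 under median centring). That gene was atp6v0cb, given with the V-ATPase.

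Fast muscle genes were higher by moderate amounts that were smallest in replicate 2. Of 43, 6 of 43 were called higher, 16 without replicate 2 and 3 under cyclic loess, and the medians in replicates 1, 2 and 3 were 0.91, 0.35 and 0.82. The intermediate filament gene desma differed by 2.57 ± 0.71, and the calcium buffer gene pvalb4 stood at 8.70 in the control and 12.00, 10.14 and 11.74 in replicates 1, 2 and 3. In both genes replicates 1 and 3 lay more than 2 units above the control, and replicate 2 lay nearer to it. The fast light-chain gene mylpfa differed by -0.13 ± 0.10. Slow and heart muscle genes had 1 of 25 called higher (4.0%, under the 5.09% over all named genes), with 7 without replicate 2 and 2 under quantile normalization. The called gene, the light-chain gene myl10, differed by 2.37 ± 0.66.

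Cone photoreceptor genes were the group farthest below the control. All 22 listed genes lay below it in all 3 arrays, 15 of 22 were called lower and 0 higher, and the median was -2.59. The medians in replicates 1, 2 and 3 were -4.39, -1.39 and -1.88, so that replicate 1 was more than 2 log2 units lower than either of the other pools, and the median without it was -1.62. Of 22 genes 15 thus compares with 2.49% of all named genes. The blue-sensitive opsin gene opn1sw2 stood at 13.09 in the control and 7.13, 11.36 and 10.55 in replicates 1, 2 and 3, a difference of -3.40 ± 2.05 or 10.6-fold lower, which was 4.37-fold without replicate 1 and 18.9-fold without replicate 2. The ultraviolet opsin gene opn1sw1 stood at 13.47 in the control and 7.74, 12.01 and 11.51 in replicates 1, 2 and 3, and the green opsin gene opn1mw1 at 12.83 in the control and 6.88, 11.41 and 10.75 in replicates 1, 2 and 3. In each of the 3 opsins the control was above 12.8, replicates 2 and 3 were within 3 units of it, and replicate 1 was more than 5 units below.

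The red opsin gene opn1lw1 and the green opsin gene opn1mw4 differed less, by -0.69 ± 0.24 and -0.36 ± 0.11, and were not called. The steps that follow the opsins were lower together. The transducin gene gnat2 differed by -2.87 ± 1.38, the phosphodiesterase gene pde6c stood at 11.45 in the control and 6.19, 9.64 and 9.06 in replicates 1, 2 and 3, and rgs9a, which switches transducin off, at 7.82 in the control and 3.87, 5.67 and 5.28 in replicates 1, 2 and 3. The phosducin gene pdcb stood at 10.46 in the control and 5.71, 8.72 and 8.19 in replicates 1, 2 and 3, and gnb5b, the partner of rgs9, at 7.80 in the control and 3.90, 6.03 and 5.60 in replicates 1, 2 and 3. Among these downstream genes too, replicate 1 was lowest and replicate 2 nearest to the control, as in most genes called lower. The mitochondrial creatine kinase gene ckmt2a, which supplies energy in photoreceptors, stood at 10.67 in the control and 6.34, 8.87 and 8.45 in replicates 1, 2 and 3. The factors thrb and tbx2b, which specify cone types, differed by -0.77 ± 0.28 and -0.27 ± 0.08.

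Genes of the rod list lay below the control less uniformly. Of 22, 7 of 22 were called lower and 0 higher, with a median of -0.91. The 7 included rlbp1a, rbp3 and neurod1, so they are not a count of genes confined to rods. The rod transducin subunit gene gngt1 stood at 10.56 in the control and 6.18, 9.21 and 8.43 in replicates 1, 2 and 3, the interphotoreceptor carrier gene rbp3 at 9.94 in the control and 5.82, 8.51 and 7.91 in replicates 1, 2 and 3, and the photoreceptor factor gene neurod1 at 10.24 in the control and 6.79, 8.88 and 8.43 in replicates 1, 2 and 3. The defining rod gene gnat1 differed by -1.68 ± 0.91 and was short of the call in replicate 2. The visual-cycle gene rlbp1a, of Müller glia and pigment epithelium, stood at 8.68 in the control and 5.92, 7.07 and 7.00 in replicates 1, 2 and 3. In the list for those cells 1 of 16 was called lower, rlbp1a, and 1 of 16 higher, apoeb. Each was 6.25%, against 2.49% lower and 5.09% higher over all named genes. The gene rpe65a, which regenerates chromophore, differed by -1.07 ± 0.24. Cyclic loess gave 2 lower and leaving out replicate 2 gave 3.

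Inner retinal and precursor genes had 14 of 33 called lower and 0 higher, 32 below the control in all 3 arrays, and a median of -1.42. The calcium-binding gene calb2b stood at 11.58 in the control and 7.04, 9.82 and 9.15 in replicates 1, 2 and 3, cabp5b, of bipolar cells, at 7.10 in the control and 4.36, 5.34 and 4.95 in replicates 1, 2 and 3, and the bipolar factor gene vsx1 at 9.36 in the control and 6.12, 7.85 and 7.80 in replicates 1, 2 and 3. The brightest, calb2b, was lower by more than 4 units in replicate 1 and by less than 2 in replicate 2. Lens genes had 1 of 12 called higher (8.33%, near the 5.09% over all named genes) and 0 lower (2.49% over all named genes), with a median of 0.01. That gene was cryba4, at 7.03 in the control and 9.74, 8.87 and 10.49 in replicates 1, 2 and 3, with replicate 3 the highest. The alpha-crystallin gene cryaa differed by 0.05 ± 0.30.

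**Figure D4:**
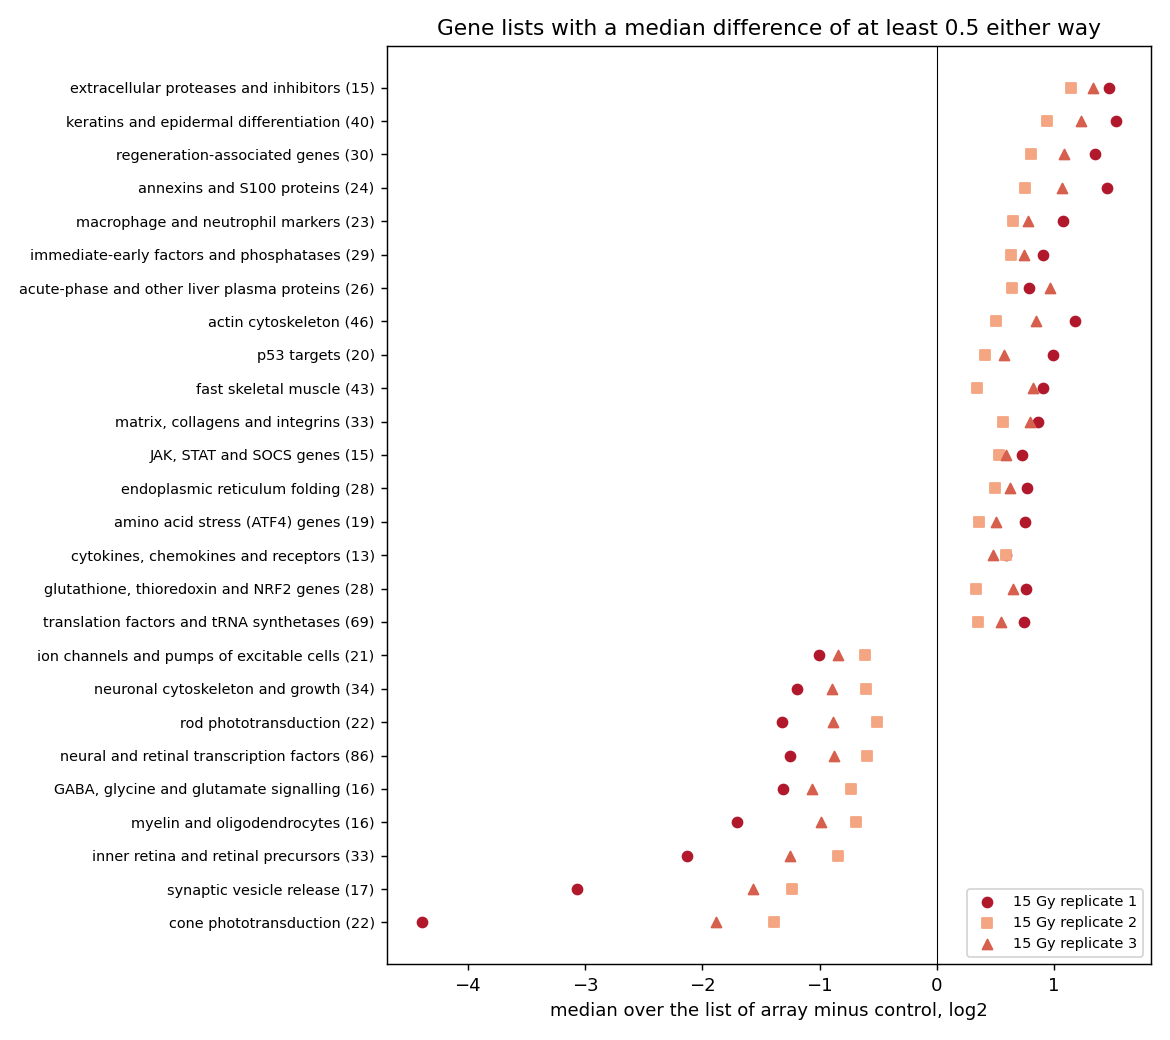
Median difference from the control (log2, x axis) in each 15 Gy pool for the 26 of 68 gene lists whose median over pools was at least 0.5 either way, with the number of genes in parentheses. In 26 of 26 lists the 3 pools lie on the same side of 0, and in 25 replicate 1 is the farthest pool. Cone phototransduction lies lowest, at -4.39, -1.39 and -1.88 in replicates 1, 2 and 3.

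Genes of neurons, many of which retinal neurons express too, were also lower in part. In the list of synaptic vesicle release genes 10 of 17 were called lower and 0 higher, with a median of -1.96, and 17 of 17 lay below the control in all 3 arrays. The calcium sensor gene syt5a stood at 8.86 in the control and 5.08, 7.46 and 6.78 in replicates 1, 2 and 3, the vesicle gene sypa at 11.06 in the control and 7.94, 9.71 and 9.49 in replicates 1, 2 and 3, and the active-zone gene rims2a at 8.41 in the control and 5.63, 7.08 and 6.63 in replicates 1, 2 and 3. The defining vesicle gene sypb was called lower, at 11.01 in the control and 7.49, 9.70 and 9.25 in replicates 1, 2 and 3. Each of the 4 genes was lowest in replicate 1 and highest of the pools in replicate 2, as were most genes called lower. In the transmitter list 5 of 16 genes of GABA, glycine and glutamate signalling were called lower (9 without replicate 2). They included slc32a1, the vesicular GABA transporter gene, at 9.49 in the control and 5.92, 7.85 and 7.52 in replicates 1, 2 and 3, and gad1b and gad2, which make GABA. The first of these stood at 10.64 in the control and 6.36, 9.27 and 8.64 in replicates 1, 2 and 3, and gad2 differed by -2.15 ± 0.91. Among genes of monoamine, acetylcholine and peptide transmitters, 2 of 32 were called lower (6.25%, against 2.49% over all named genes). The count was 6 without replicate 2 and 1 after adding 16. The peptide-processing gene cpe stood at 10.35 in the control and 7.60, 9.04 and 8.91 in replicates 1, 2 and 3.

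Among neuronal cytoskeleton and growth genes, 9 of 34 were called lower and 1 of 34 higher, and 15 lower without replicate 2. The intermediate filament gene inaa stood at 7.51 in the control and 5.03, 6.00 and 5.45 in replicates 1, 2 and 3, and the kinase gene camk2d2 at 9.68 in the control and 6.14, 8.19 and 7.58 in replicates 1, 2 and 3. The member called higher, thy1, a surface glycoprotein gene, stood at 6.06 in the control and 8.95, 7.93 and 8.45 in replicates 1, 2 and 3. Ion channels and pumps had 8 of 21 lower, including the calcium pump gene atp2b3a, at 9.64 in the control and 6.42, 8.26 and 7.91 in replicates 1, 2 and 3, and the potassium channel gene kcnh2a, at 9.86 in the control and 6.82, 8.56 and 7.96 in replicates 1, 2 and 3. Myelin and oligodendrocyte genes had 3 of 16 lower, 8 without replicate 2, and the 3 called genes gpm6ba, gpm6aa and gpm6ab differed by -2.40, -2.13 and -1.59. They are membrane proteolipids of neurons as well as glia. The myelin basic protein gene mbpa, the defining marker, differed by -1.40 ± 0.70, short of the call. Radial glia differed among themselves: the glutamate transporter gene slc1a2b stood at 12.82 in the control and 9.76, 11.59 and 11.11 in replicates 1, 2 and 3, while the filament gene gfap differed by 0.24 ± 0.12 and vim by 1.18 ± 0.17.

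Neural and retinal transcription factors had 14 of 86 called lower and 1 of 86 higher, with a median of -0.92 and 76 of 86 below the control in all 3 arrays. Without replicate 2, 33 were called lower, and after adding 16 to each intensity 9. The excitatory neuron factor genes neurod6b and neurod6a stood at 8.57 in the control and 5.11, 7.12 and 6.69 in replicates 1, 2 and 3, and at 8.00 in the control and 4.42, 6.59 and 5.94 in replicates 1, 2 and 3, respectively. The factor genes bhlhe22 and lhx9 differed by -2.20 ± 0.92 and -2.05 ± 0.76. The member called higher, zic2b, stood at 5.18 in the control and 6.40, 6.29 and 6.50 in replicates 1, 2 and 3, and was not called after adding 16 or averaging probe sets. Of 51 genes of the hox list, none was called (4 lower without replicate 2, 1 under cyclic loess or median centring).

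Some copies of the same enzyme or protein had mean differences of opposite sign, a pattern chosen after the values were seen. Over all named genes, 41.0% lay above and 36.5% below the control in all 3 arrays. Both signs are thus likely within many sets of genes, and whether copies differed more often was not tested. Of the families counted in full, only the enolase, creatine kinase, alpha-tubulin and parvalbumin genes had copies called both ways. In energy metabolism, eno1b stood at 8.75 in the control and 7.08, 7.68 and 7.50 in replicates 1, 2 and 3, and the muscle enolase gene eno3 at 9.14 in the control and 11.13, 10.18 and 10.64 in replicates 1, 2 and 3. The phosphoglycerate mutase gene pgam1b differed by -1.46 ± 0.35, and its muscle counterpart pgam2 by 0.72 ± 0.72, with pools on both sides of the control. The brain-type aldolase genes aldoca and aldocb differed by -1.42 and -0.87, and the muscle type aldoab by 0.73. Glycolysis and citric acid cycle genes as a list thus had 1 of 62 called higher (4 without replicate 2) and 3 of 62 lower (5 without replicate 2), with a median of 0.07. The call of eno3 was lost under cyclic loess and under median centring, and that of aldoca after adding 16.

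The creatine kinase genes ckmt2a and ckbb differed by -2.78 and -1.71, against 1.53 for ckba and 0.64 for the muscle gene ckma. Among 9 nucleoside diphosphate kinase genes, nme2a was the only one called, at 9.65 in the control and 4.74, 7.66 and 7.08 in replicates 1, 2 and 3, and nme2b.1 and nme2b.2 differed by 0.44 and 0.71. The phosphate carrier gene slc25a3a stood at 9.66 in the control and 6.08, 8.01 and 7.54 in replicates 1, 2 and 3, and its copy slc25a3b at 11.11 in the control and 11.70, 11.20 and 11.53 in replicates 1, 2 and 3. The guanylate kinase genes guk1b and guk1a differed by -2.81 ± 1.13 and 0.13 ± 0.21, and the pools of guk1a lay on both sides of the control. In each of these sets the copy with the larger negative difference had its lowest value in replicate 1, as did all 219 genes called lower.

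The elongation factor gene eef1a1a, also lowest in replicate 1, differed by -2.01 ± 0.87, and eef1a1l1 by 0.05 ± 0.09, with pools on both sides of the control. Of 4 elongation factor 1 alpha genes, 3 lay below the control in all 3 arrays and 0 above. The chaperone gene hspa4l stood at 8.38 in the control and 5.57, 7.04 and 6.50 in replicates 1, 2 and 3, and hspa4a at 7.11 in the control and 8.80, 8.03 and 8.37 in replicates 1, 2 and 3. The neuronal sodium pump gene atp1a3a stood at 9.42 in the control and 6.26, 8.00 and 7.84 in replicates 1, 2 and 3, and atp1a1a.2 at 7.12 in the control and 8.49, 7.77 and 8.11 in replicates 1, 2 and 3. For atp1a3a, 1 of 2 probe sets was called lower and 0 higher. Among alpha-catenins, the epithelial gene ctnna1 stood at 7.33 in the control and 9.63, 8.99 and 9.26 in replicates 1, 2 and 3, and the neural gene ctnna2 at 8.05 in the control and 7.13, 7.53 and 7.27 in replicates 1, 2 and 3. The fatty acid elongase genes elovl4b and elovl1b differed by -2.84 ± 1.26 and 1.78 ± 0.24. The alpha-tubulin genes tuba2 and tuba5 differed by -1.91 ± 0.86 and 1.51 ± 0.14, and all 5 beta-tubulin genes lay below the control in all 3 arrays, with tubb4bl at -2.22. Calls of ckba and tuba2, and of the sodium pump beta genes atp1b2a and atp1b3a, were lost when all probe sets of a gene were averaged. Whether probes of near-identical copies cross-hybridized was not tested.

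**Figure D5:**
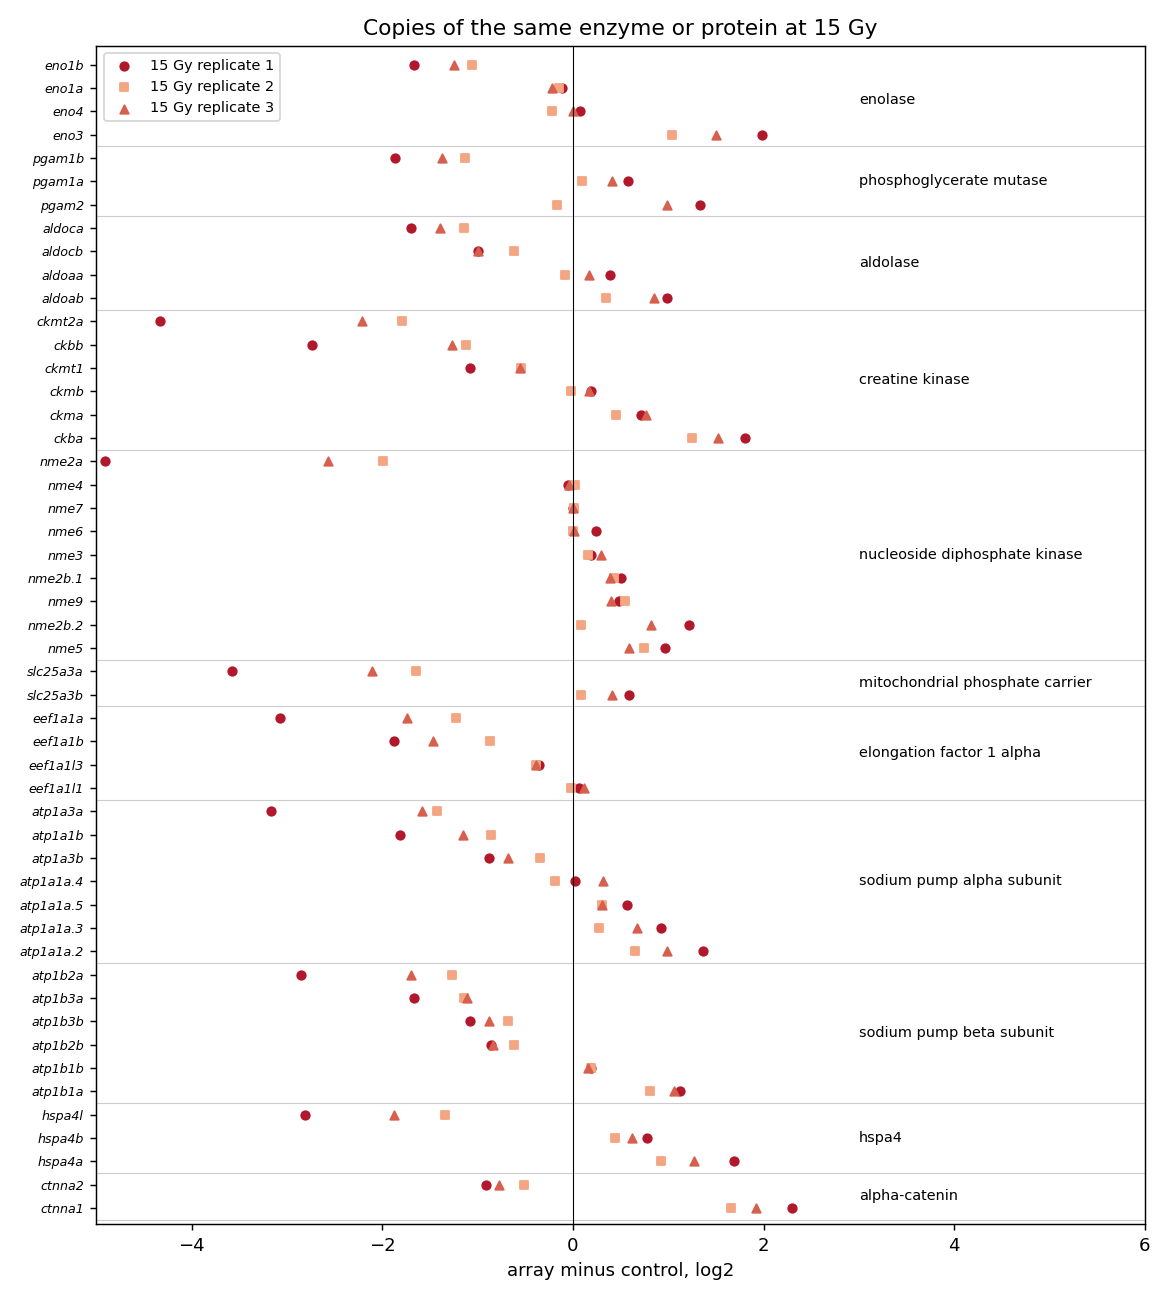
Difference of each 15 Gy pool from the control (log2, x axis) for every measured copy in 11 gene families, chosen after the values were seen. Copies are ordered within a family by their mean difference. In the enolase family eno1b lies at a mean of -1.33 and eno3 at 1.51.

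A uniform family was the V-ATPase, the proton pump of lysosomes and synaptic vesicles. All 12 subunit genes lay below the control in all 3 arrays, with differences from -1.91 to -0.56. The genes atp6v0cb, at 12.14 in the control and 9.30, 11.01 and 10.35 in replicates 1, 2 and 3, and atp6v1b2, which differed by -1.80 ± 0.61, were called lower, and cyclic loess gave 4. Respiratory chain genes, by comparison, had no member called among 73 (1 lower without replicate 2) and a median of 0.23. Their medians in replicates 1, 2 and 3 were 0.42, -0.08 and 0.33, on both sides of the control.

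Several lists had few or no called genes. At the shares over all named genes, 5.09% higher and 2.49% lower, lists of this size would hold few calls. A lack of calls in them thus says little. None of 22 pigment cell genes was called (1 higher without replicate 2), none of 20 germ cell genes, and none of 34 circadian clock genes (1 lower without replicate 2). Exocrine pancreas enzymes had none of 21 called, but their medians in replicates 1, 2 and 3 were -1.08, -0.24 and 0.17, so the pools lay on both sides of the control, and 1 was called lower without replicate 3. The elastase gene ela3l stood at 7.31 in the control and 5.35, 7.07 and 7.69 in replicates 1, 2 and 3, which shows that spread. Enterocyte and gut genes had 3 of 30 called higher and 2 of 30 lower, with a median of -0.11. Those called higher were the apolipoprotein gene apoa1a, the galectin gene lgals2a and the glucagon gene gcga, with differences of 2.17, 1.77 and 1.61. Those called lower were neurod1, given with the rod genes, and the bile acid carrier gene fabp6, at 9.38 in the control and 5.40, 7.53 and 8.11 in replicates 1, 2 and 3. Of the 23 defining markers of tissues, 19 had a named probe set, and 13 of those lay above the median of the control array. The germ cell gene ddx4 and the ion transporter gene slc12a3 were the dimmest of the 19 in the control, at log2 intensities of 3.35 and 5.01.

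The 2-fold limit cut through a continuous range. Just inside it on the higher side were lipf, pcolcea and ssh2a, with mean differences of 2.36-fold, 2.23-fold and 2.36-fold, and just outside were bcap31, gng12a and arfip1, with 2.6-fold, 2.4-fold and 2.45-fold. On the lower side kcnd3, anp32e and gnao1a lay just inside, with log2 differences of -1.41, -1.38 and -1.64, and negr1, bace1 and fam184aa just outside, with -1.54, -1.32 and -1.58. Of genes called higher, 85 had several probe sets, of which 29 had at least 2 called the same way and 0 had one called the other way. Of genes called lower, 33 had several, 16 had at least 2 called the same way and 0 had one called the other way. In the rest of both sets only the brightest probe set was called. A further 142 probe sets without a single gene name were called higher and 190 lower.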

How the data were processed

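RNA of whole larvae was hybridised to Affymetrix zebrafish arrays, from 6 µg of total RNA a pool, per the labels' protocols. The deposited table holds a linear intensity for each probe set. RMA was used, per the submitters' processing notes. Its software, version and probe definitions were not given in the sources used here, and that the intensities are RMA values turned back from log2 is read from the values only. Here log2 was taken with no added constant, 115 AFFX controls were dropped, and the probe set brightest over all 5 arrays stood for a gene. Of 15502 probe sets, 10795 had 1 symbol in the platform annotation, checked against RefSeq GRCz12tu names, 135 several and 4572 none. Detection calls could not be made, since scanner files were not used here.

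Group means were fitted with limma 3.58.1 (R 4.3.3) over all 5 arrays. The two-sided contrast was 15 Gy minus control, with p-values adjusted by Benjamini-Hochberg over every probe set tested and SE from the moderated fit. The lone control array was taken to vary as the 15 Gy pools do, and the number of arrays limits the precision. Values identical to 8 decimals in all 3 arrays at 15 Gy occurred in 174 probe sets, and in 2 of the 3 in 1711, which lowers the estimated spread. Of all probe sets tested, 3879 had identical values in 2 or more of the 5 arrays. Where a 15 Gy array tied with the control, the gene counted as neither above nor below it in all 3 arrays. On simulated arrays of this comparison, with 15502 probe sets of which 200 were changed, the test recovered 22% of changes of 1 on the log2 scale, 42% of 2, 78% of 4 and 88% of 6. The simulated noise was normal, independent between probe sets and drawn from each probe set's estimated spread. Real arrays need not follow these settings, so the shares do not measure the power of the real comparison. Counts and figures used Python 3.11.15, pandas 2.3.3 and matplotlib 3.10.9.

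The comparison, the 68 gene lists and the rules were chosen with earlier results of these data known. Genes named were the 15 farthest above and 15 farthest below the control by the nearest 15 Gy array, up to 4 members of each list, called members against a list's median, and 3 genes on each side of the 2-fold limit each way. Other members singled out (defining markers, further called members, contrasts, gene families) were chosen after their values were seen. Alternatives were other scalings, an added constant of 16, a filter on the dimmest 30% of probe sets, other folds and fits, averaged probe sets and leaving out each 15 Gy array.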

Additional observations from a re-analysis of the deposited data

How the results depend on the processing

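The limma count was 0 under all alternatives run, while probe sets at an unadjusted p under 0.05 numbered 4062 as reported, 1122 without replicate 3 and 4479 without replicate 2. Without each 15 Gy array in turn, named genes called higher numbered 448 to 740 and lower 219 to 428, and probe sets 642 to 1046 and 435 to 841. The upper values all came from leaving out replicate 2. With a 1.5-fold call, 1026 genes were higher and 633 lower, and with a 3-fold call 165 and 20. Other scalings kept the counts within 1.5 times, at 385 to 435 genes higher and 244 to 271 lower, and median centring gave 550 probe sets higher and 538 lower. Adding 16 to each intensity gave the lowest counts at the 2-fold limit, 337 genes higher and 162 lower. No list median of at least 0.5 reversed its sign under the alternatives that recomputed it. Nor did any called gene among 410 followed, which were the genes named by rule and the family members. These genes were followed through other scalings, the added constant, averaged probe sets and each left-out array. Leaving out an array cannot reverse a called gene, since the call puts all 3 arrays on the same side. Counts of called list and family members moved by over 1.5 times in 50 of 176 cases without replicate 2, against 0 without replicate 1 and 1 without replicate 3. Replicate 1 was mostly the farthest array, so that leaving it out can hardly change such a count. List and family medians moved by over the SD between pools in 6 of 88 cases without replicate 1 and 3 each without replicates 2 and 3. Leaving out 1 of 3 pools shifts a mean by less than the SD between them, so these counts were bound to be low. The cone median ran from -3.18 to -1.62, the latter without replicate 1. Medians moved in 25 cases without the dimmest 30% of probe sets, 15 under cyclic loess and 13 under median centring. Quantile normalization, adding 16 and averaging probe sets moved 7 each. These counts cannot be ranked against those of left-out pools. The dim filter used the mean over all 5 arrays, so genes dim in the control could stay in through high 15 Gy values. Rises of list medians under that filter may thus be partly built into it. The interferon median ran from 0.12 to 0.94 and the lens median from -0.04 to 0.73. No paired analysis was possible because the control and 15 Gy groups share 1 replicate number. The cause of these shifts was not tested, apart from the call's own construction: fewer arrays or a lower fold leave more genes past it. Signals over background were not measured, so low intensities have no stated limit.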
